A study of Mus musculus with 9 samples.

Results

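The transcriptome of BeCon mouse tumor cells kept in culture was set against that of the same tumor cells recovered from the ascites of B6 mice. Genes entered the comparison with an FPKM (a gene's fragments divided by its transcript length and by the library's mapped total) of at least 1 in the cultured library or in at least 3 of the 4 vehicle libraries. This kept 12210 of the 48237 genes of the table and used 5 of the 9 libraries. The cultured library was 1 sample of tumor cells grown in vitro with no treatment named. The 4 vehicle libraries were tumor cells from BeCon-bearing B6 mice that received the control solution in place of the salt-inducible kinase inhibitor YKL-05-099, which the mice of the other 4 libraries received. The ascites cells had been purified by a sort for live cells that lacked CD45, the common leukocyte antigen, and carried MHC class I. Whether the cultured cells passed the same sort is not stated, nor are the medium, the passage, or the age and sex of the mice. The titles number the vehicle libraries without saying if each was 1 mouse or a pool.

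The cultured group has no replicate, so no p-value, standard error or interval was computed for it, and every cultured value stands for 1 library. Culture against growth in the mouse, the sort, the harvest and any batch of the cultured library cannot be told apart. A gene is called apart where the cultured value lay outside the range of the 4 vehicle libraries and at least 1 unit from their mean on the log2(FPKM + 1) scale. On that scale differences of genes with low levels are understated. Vehicle values are given as mean ± SD (n = 4), and every log2 difference is cultured minus vehicle mean. In bulk RNA, fewer cells of a type and less RNA per cell cannot be told apart. The filter edge held 7 genes with a cultured FPKM from 1.0003 to 1.0099 just inside and 10 genes from 0.99037 to 0.99914 just outside.

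Tumor cells that float in ascites live in a fluid rich in cytokines, complement and leukocytes, with limited oxygen, and they receive cholesterol and amino acids from the host. Cells in a culture dish are fed by medium and serum, attach to plastic, and have no immune cells around them. Sterol sensing through SREBP-2, amino acid sensing through ATF4, and interferon and NF-kappaB signalling are textbook routes by which such surroundings set transcript levels.

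The labels call the cells tumor cells and no more. Both groups expressed markers of mesothelium and ovarian surface epithelium. Wt1, a transcription factor of mesothelium and ovarian surface epithelium, was at 373 FPKM in culture and 557 ± 5.77 FPKM in vehicle cells (log2 difference -0.58). The keratin Krt19 was at 466 FPKM in culture and 364 ± 18.3 FPKM in vehicle cells (log2 difference 0.36), and mesothelin, Msln, was at 41.6 FPKM in culture and 36.3 ± 4.43 FPKM in vehicle cells (log2 difference 0.20). These 3 genes were the only ones of the 15 mesothelial markers that were not apart, and the other 12 were lower in culture, with a list median of -2.24, as described with the lineage genes. All 15 were in the table, and 11 of them reached an FPKM of 1 in the cultured library. Their summed level was 1351 FPKM in culture and 2875 to 3067 FPKM in the vehicle libraries.

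Macrophage, erythroid, pan-leukocyte, neutrophil and platelet markers summed to more in the vehicle libraries than in culture, and T and NK cell, dendritic cell and mast cell markers to more in culture. The 16 macrophage markers summed to 12.3 FPKM in culture, most of it from Cd68, and to 411, 539, 278 and 235 FPKM in vehicle replicates 1 to 4. Adgre1, C1qa, C1qb, C1qc, Cd14, Fcgr1, Ms4a7 and Timd4 were listed at 0 in culture. The 9 erythroid markers summed to 0.420 FPKM in culture against 647, 1487, 419 and 244 FPKM in the vehicle replicates, and Hba-a1, Hba-a2, Hbb-bs, Hbb-bt and Slc4a1 were listed at 0 in culture. In vehicle replicates 1 to 4 the beta globin gene Hbb-bs was at 431, 954, 272 and 148 FPKM and the alpha globin gene Hba-a1 at 135, 345, 93.9 and 61.5 FPKM. Of the 15 pan-leukocyte markers, 7 were listed at 0 in culture, Ptprc (the CD45 gene) and Cd53 among them, and the sums were 13.8 FPKM in culture and 36.3 to 68.3 FPKM in vehicle libraries. Neutrophil markers summed to 0.142 FPKM in culture and 2.02 to 3.92 FPKM in vehicle cells, and platelet markers to 3.02 and 15.6 to 24.7 FPKM. The 16 T and NK cell markers summed to 4.45 FPKM in culture, nearly all of it from Trac, and to 0.473 to 1.34 FPKM in vehicle cells, with Cd3e, Cd3d and Cd8a listed at 0 in all 5 libraries. The 8 dendritic cell markers summed to 17.8 FPKM in culture and 8.77 to 9.65 FPKM in vehicle cells, and most of the cultured sum came from the chemokine receptor gene Ccr7, at 11.7 FPKM in culture and 0.377 ± 0.109 FPKM in vehicle cells (log2 difference 3.21). Mast cell, basophil and eosinophil markers summed to 1.36 FPKM in culture and 0.0736 to 0.204 FPKM in vehicle cells. Of these 10 markers 8 were listed at 0 in culture and only 1 reached an FPKM of 1 there. The 11 B and plasma cell markers summed to 47.7 FPKM in culture and 54.4, 53.7, 105 and 72.8 FPKM in the vehicle replicates. Nearly all of the cultured sum came from Sdc1, syndecan-1, which epithelial cells also make, at 46.9 FPKM in culture and 34.8 ± 1.14 FPKM in vehicle cells (log2 difference 0.42). The immunoglobulin genes Igkc, Igha and Ighm were listed at 0 in culture and stood at 19.7, 7.38 and 6.17 FPKM in the vehicle mean. The fibroblast list summed to 338 FPKM in culture and 656 to 709 FPKM in vehicle cells, the endothelial list to 56.1 and 121 to 128 FPKM, and the adipocyte list to 0.267 and 1.21 to 3.19 FPKM. Vehicle replicate 2 carried the most macrophage and erythroid RNA and vehicle replicate 4 the least. Replicate 4 was also the library most often set off from the other 3 vehicle libraries in the genes named here, and counts without it are given below.

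**Figure D1:**
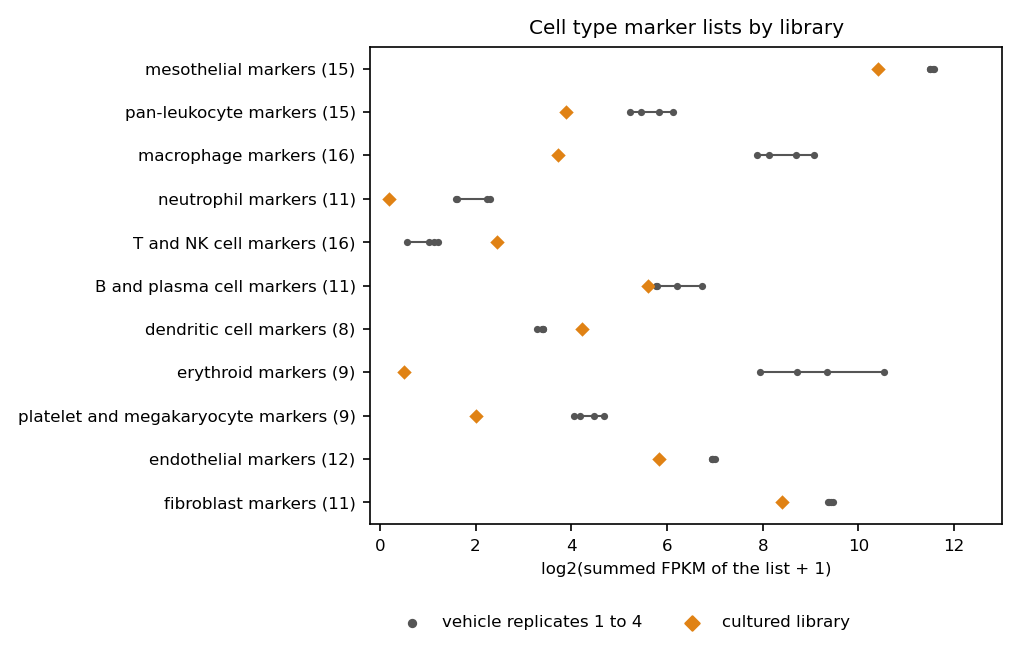
Summed FPKM of 11 cell type marker lists on a log2(sum + 1) axis, with the number of genes of each list in the table in brackets, for the cultured library (orange diamonds) and vehicle replicates 1 to 4 (grey points, joined by a line over their range). The erythroid and macrophage sums of the cultured library, 0.420 and 12.3 FPKM, lie far left of all vehicle points, while the mesothelial sum is high in all 5 libraries.

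The cultured library had an approximate depth of 28000000 fragments and the vehicle libraries of 25000000 to 34000000. Each was the most common depth at which a nonzero FPKM would stand for 1 fragment, within a range set beforehand. It was read from 5745 single-transcript genes of 2000 bases or more. An FPKM of 1 was reached by 11422 to 11894 genes in each library. Across genes, which are no replicates of each other, log2(FPKM + 1) correlated at a Pearson r of 0.986 to 0.994 between vehicle libraries and of 0.851 to 0.859 between the cultured library and each of them. The median SD of a kept gene over the vehicle libraries was 0.0987 on the log2(FPKM + 1) scale.

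Of the 12210 genes, 1215 were apart and higher in culture, which is 9.95% of the genes compared, and 1349 were apart and lower, which is 11.0%. These shares are the background for the counts of each gene list. The other 9646 genes were not apart, and the median log2 difference of all genes kept was 0.04. Without vehicle replicate 4 the counts were 1208 higher and 1404 lower. At a difference of at least 2 log2 units the counts were 261 higher and 385 lower. Of the genes kept, 10821 reached the FPKM minimum in both groups, 601 only in culture and 788 only in vehicle cells. Genes kept only through culture could not come out lower, and genes kept only through vehicle cells could not come out higher. This limit holds for each kept gene under 1 FPKM in culture or in all vehicle libraries. In culture 125 kept genes were listed at 0, and 39 of these had a vehicle mean of at least 5 FPKM. In all vehicle libraries 30 kept genes were listed at 0.

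**Figure D2:**
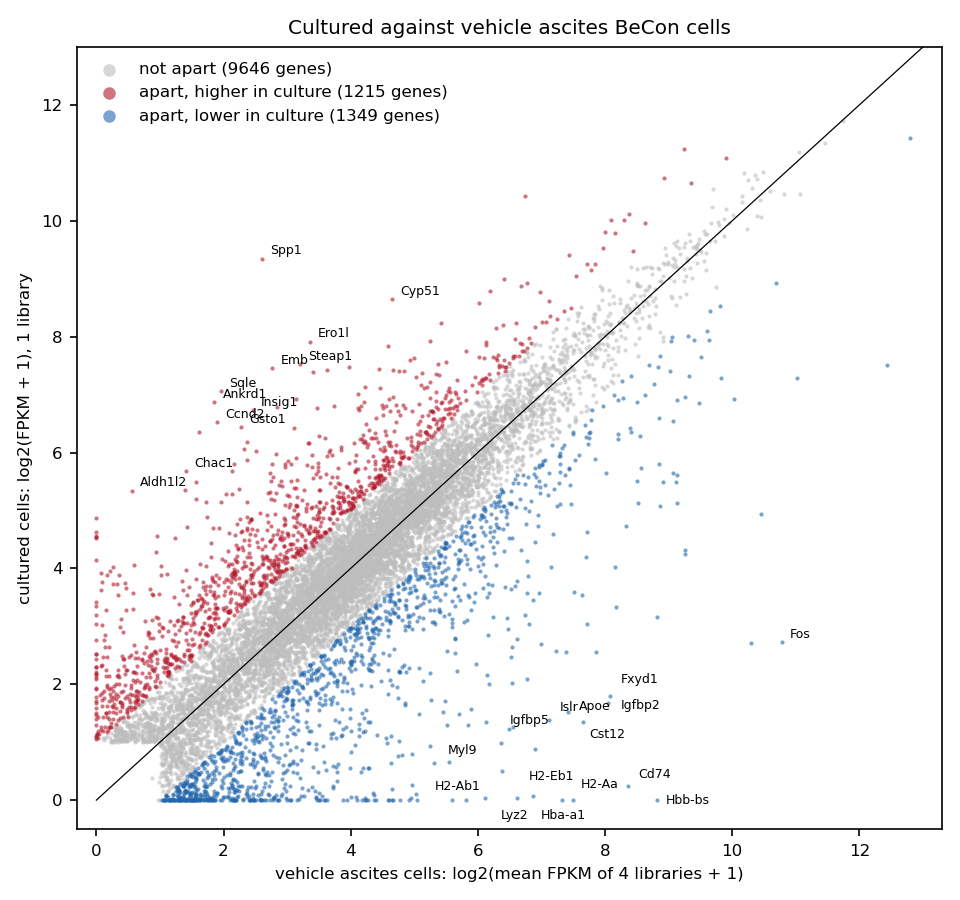
Level of each of the 12210 kept genes in vehicle ascites cells (x axis, log2 of the mean FPKM of 4 libraries + 1) and in the cultured library (y axis, log2(FPKM + 1)), coloured by whether the gene was apart and higher (1215 genes) or lower (1349 genes) in culture, with the line of equal levels. Spp1 lies farthest above the line among the named genes, and Hbb-bs, Fos and Cd74 lie farthest below it.

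The gene with the highest log2 difference among those of at least 5 FPKM was Spp1 (chr5:104435118-104441050), which encodes osteopontin, a secreted phosphoprotein that binds integrins and CD44. Spp1 was at 651 FPKM in the cultured library and 4.91, 6.05, 4.97 and 4.39 FPKM in vehicle replicates 1 to 4 (5.08 ± 0.695 FPKM), a log2 difference of 6.75. The cultured value was above all 4 vehicle libraries, which were close to each other. Behind Spp1 came genes of sterol supply (Sqle, Insig1, Cyp51), of amino acid and one-carbon metabolism (Aldh1l2, Chac1), and of oxidative protein folding (Ero1l). The cyclin gene Ccnd2, whose product starts the cell cycle with CDK4 or CDK6, was at 90.8 FPKM in the cultured library and 2.999, 2.82, 3.18 and 1.94 FPKM in vehicle replicates 1 to 4 (2.74 ± 0.550 FPKM), a log2 difference of 4.63. Its partners in the list of 17 G1 cyclins, CDKs and inhibitors were mostly near vehicle level, with 4 members higher, 0 lower and a list median of 0.37. Embigin, Emb, an adhesion protein and chaperone of monocarboxylate transporters, was at 174 FPKM in culture and 5.81 ± 0.728 FPKM in vehicle cells (log2 difference 4.69). Steap1, a metalloreductase family member of the plasma membrane, was at 184 FPKM in culture and 8.19 ± 1.41 FPKM in vehicle cells (log2 difference 4.34), and Gsto1, an omega class glutathione transferase, at 85.8 FPKM in culture and 3.84 ± 1.01 FPKM in vehicle cells (log2 difference 4.19). Ankrd1, a nuclear ankyrin repeat protein and YAP target, was at 116 FPKM in culture and 2.62 ± 0.730 FPKM in vehicle cells (log2 difference 5.03). Mir686 and Mir8103 were also among the 15, at 23.7 and 16.7 FPKM in culture, with Mir8103 listed at 0 in all vehicle libraries. Small RNA genes are poorly captured by poly(A) selection, and the table marks Mir686 as having low data. Of small RNA genes 36 were apart and higher in culture and 5 lower, against 1215 and 1349 of all genes. The cause was not tested.

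Among the 15 genes farthest below vehicle level were the globin genes Hbb-bs and Hba-a1, whose values stand with the erythroid markers above, and 4 genes of MHC class II presentation, described below. Fos, the AP-1 subunit of the immediate early response, was at 5.60 FPKM in the cultured library and 1576, 1738, 1559 and 2149.6 FPKM in vehicle replicates 1 to 4 (1756 ± 275 FPKM), a log2 difference of -8.04. The insulin-like growth factor binding proteins Igfbp2 and Igfbp5 were at 2.194 FPKM in culture and 263 ± 45.1 FPKM in vehicle cells (log2 difference -6.35) and at 0.833 FPKM in culture and 118 ± 13.5 FPKM in vehicle cells (log2 difference -6.01). Fxyd1, a regulator of the sodium pump, was at 2.49 FPKM in the cultured library and 277, 276, 272 and 258 FPKM in vehicle replicates 1 to 4 (271 ± 8.86 FPKM), a log2 difference of -6.28, and its vehicle libraries differed by little. Cst12, a cystatin family protease inhibitor, was at 1.55 FPKM in culture and 199.6 ± 25.0 FPKM in vehicle cells (log2 difference -6.29). The smooth muscle type myosin light chain Myl9 was at 0.415 FPKM in culture and 82.1 ± 5.87 FPKM in vehicle cells (log2 difference -5.87), and Islr, a secreted leucine-rich repeat protein, at 1.62 FPKM in culture and 138 ± 21.1 FPKM in vehicle cells (log2 difference -5.72). Lyz2 and Apoe, lysozyme and an apolipoprotein that macrophages make in quantity, were at 0.0237 FPKM in culture and 97.5 ± 35.1 FPKM in vehicle cells (log2 difference -6.52) and at 1.87 FPKM in culture and 170.0 ± 66.4 FPKM in vehicle cells (log2 difference -5.81). Lyz2 and Apoe are among the macrophage markers summed above, so their order over the vehicle replicates is no separate comparison with that sum. In vehicle replicates 1 to 4 Apoe was at 197, 247, 142 and 93.7 FPKM and Lyz2 at 110, 142, 66.5 and 72.2 FPKM. The part of macrophage RNA in these 2 genes was not tested.

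Genes of cholesterol synthesis and uptake stood higher in the cultured library as a whole list. SREBP-2, encoded by Srebf2, is cleaved when sterols are low in the endoplasmic reticulum and then switches on the enzymes of the pathway and of sterol uptake. All 22 kept members of 23 in the table were apart and higher, with log2 differences from 1.19 to 5.13 and a median of 2.60, against 9.95% of all genes and a median of 0.04. Sqle, the squalene epoxidase and an early oxygen-requiring step of sterol synthesis, was at 132 FPKM in the cultured library and 2.29, 2.47, 2.39 and 4.41 FPKM in vehicle replicates 1 to 4 (2.89 ± 1.02 FPKM), a log2 difference of 5.13. Vehicle replicate 4 was the highest of the vehicle libraries for Sqle and still lay far below culture. Insig1, the sterol sensor that holds SREBP precursors in the endoplasmic reticulum and is itself an SREBP target, was at 106 FPKM in the cultured library and 4.51, 4.47, 4.41 and 4.61 FPKM in vehicle replicates 1 to 4 (4.50 ± 0.0847 FPKM), a log2 difference of 4.28. The lanosterol demethylase Cyp51 was at 399 FPKM in culture and 24.2 ± 3.11 FPKM in vehicle cells (log2 difference 4.0004), and the farnesyl diphosphate synthase Fdps at 167 FPKM in culture and 9.56 ± 0.211 FPKM in vehicle cells (log2 difference 3.99). Srebf2 itself was at 187 FPKM in culture and 44.2 ± 1.18 FPKM in vehicle cells (log2 difference 2.06). The smallest difference of the list was that of the isomerase gene Ebp, at 39.3 FPKM in culture and 16.7 ± 0.514 FPKM in vehicle cells (log2 difference 1.19). The core of the sterol regulatory element, CACCCCAC searched on both strands, was found in 1 of 18 windows (5.56%) of the list, 300 bases each around the annotated start (RefSeq, GRCm38.p6), against 2.87% of all 32851 windows, so these letters were absent from nearly all of the list's windows.

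Fatty acid genes split by direction of the pathway. Of 18 synthesis genes, 8 were higher and 1 was lower, with a median log2 difference of 0.96. The stearoyl-CoA desaturases Scd2 and Scd1, which make monounsaturated fatty acids, were at 1382 FPKM in culture and 106 ± 26.6 FPKM in vehicle cells (log2 difference 3.73) and at 242 FPKM in culture and 36.8 ± 6.05 FPKM in vehicle cells (log2 difference 2.70). The elongase Elovl6 was at 23.2 FPKM in culture and 4.33 ± 0.967 FPKM in vehicle cells (log2 difference 2.20). The 1 lower gene was Gpam, the first acyltransferase of triglyceride synthesis, at 9.23 FPKM in culture and 19.8 ± 2.54 FPKM in vehicle cells (log2 difference -1.01), and it was not apart without vehicle replicate 1 (-0.96) or 3 (-0.97). Of 19 genes of fatty acid uptake, storage and oxidation, 1 was higher and 6 were lower, with a median of -0.57. Lpl, the lipoprotein lipase that frees fatty acids from circulating triglyceride, was at 75.7 FPKM in the cultured library and 226, 212, 198 and 195 FPKM in vehicle replicates 1 to 4 (208 ± 14.3 FPKM), a log2 difference of -1.44. The trifunctional protein subunit Hadhb of mitochondrial beta-oxidation was at 32.2 FPKM in culture and 96.5 ± 12.7 FPKM in vehicle cells (log2 difference -1.55), and the hormone-sensitive lipase Lipe at 9.18 FPKM in culture and 28.2 ± 2.12 FPKM in vehicle cells (log2 difference -1.52). Cd36 and Fabp4, a fatty acid translocase and a fatty acid binding protein, were also lower, at 0.0273 and 0.0390 FPKM in culture against 3.44 ± 1.47 and 2.09 ± 0.825 FPKM. Both are also expressed by macrophages and adipocytes, and the part of such cells was not tested.

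**Figure D3:**
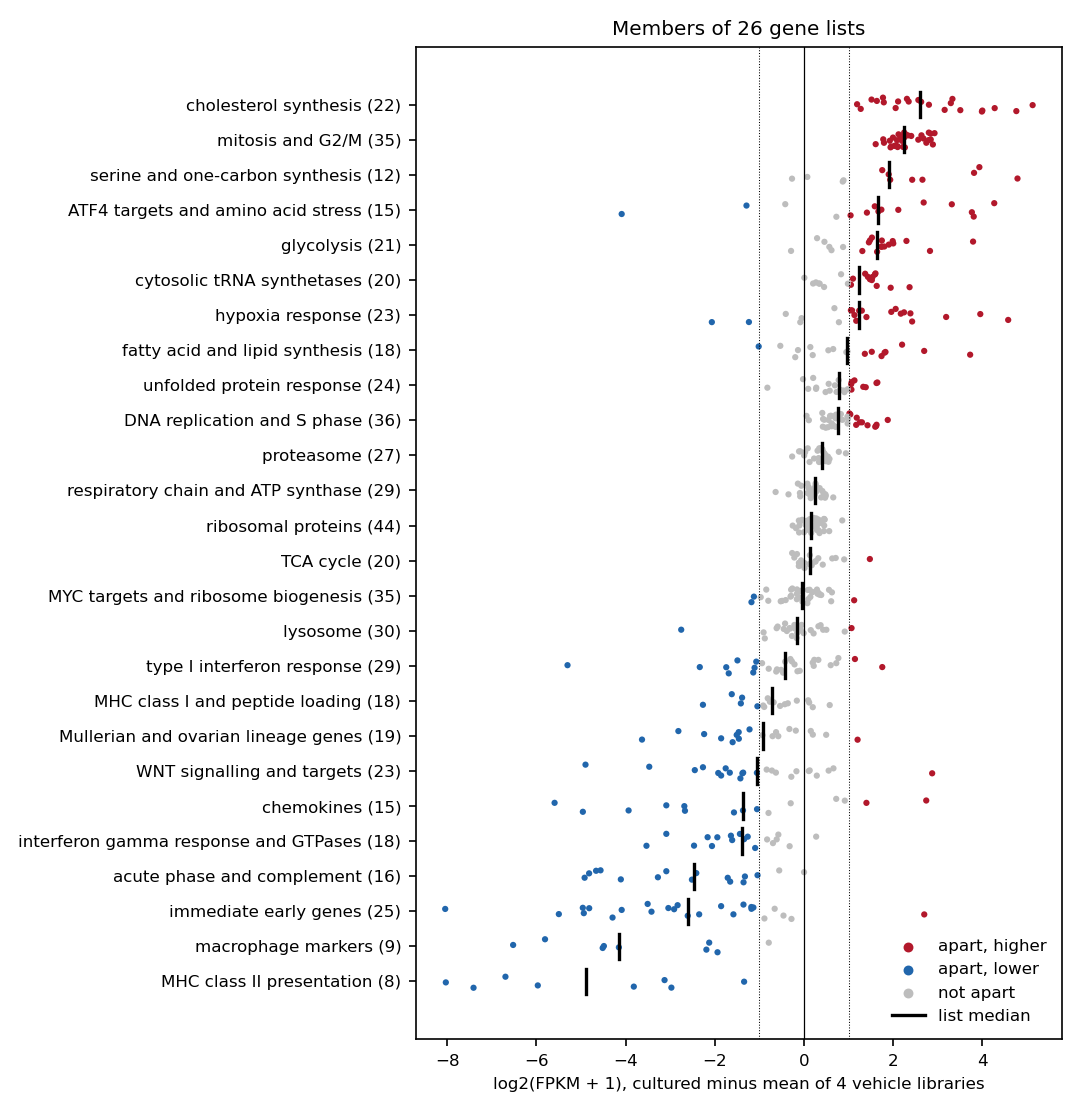
Log2 differences (cultured library minus mean of 4 vehicle libraries, log2(FPKM + 1)) of the kept members of 26 gene lists, 1 point a gene, with the number of kept members in brackets and the list median as a black bar. Dotted lines mark 1 log2 unit in each direction. All points of cholesterol synthesis and of mitosis lie right of the upper dotted line, ribosomal proteins gather near 0, and all points of MHC class II presentation lie left of the lower one.

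Targets of ATF4 and the enzymes of serine, proline and one-carbon synthesis were mostly higher in culture. ATF4 is translated when amino acids run short or the endoplasmic reticulum is stressed, and with C/EBP partners it binds C/EBP-ATF response elements in the genes that make and import amino acids. Of 15 kept ATF4 targets, 11 were higher and 2 lower (median 1.67). Fgf21 and Cth, named below, passed the filter only through the cultured library, so they could not come out lower. Asns, the asparagine synthetase, was at 172 FPKM in the cultured library and 11.1, 11.8, 11.3 and 11.1 FPKM in vehicle replicates 1 to 4 (11.3 ± 0.346 FPKM), a log2 difference of 3.81. Chac1, which degrades glutathione, was at 50.2 FPKM in the cultured library and 1.68, 1.75, 1.498 and 1.73 FPKM in vehicle replicates 1 to 4 (1.66 ± 0.113 FPKM), a log2 difference of 4.27, and vehicle libraries of both genes lay within a narrow band. The secreted hormone gene Fgf21 was at 15.3 FPKM in culture and 0.202 ± 0.0442 FPKM in vehicle cells (log2 difference 3.77), and Cth, which makes cysteine from cystathionine, at 12.5 FPKM in culture and 0.359 ± 0.104 FPKM in vehicle cells (log2 difference 3.32). Atf4 itself was at 609 FPKM in culture and 229 ± 17.1 FPKM in vehicle cells (log2 difference 1.41). The 2 lower members, Atf3 at 10.6 FPKM in culture and 197 ± 21.7 FPKM in vehicle cells (log2 difference -4.09) and Ppp1r15a at 27.3 FPKM in culture and 69.0 ± 12.9 FPKM in vehicle cells (log2 difference -1.29), are also immediate early response genes. Atf3 is counted in that list too.

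The promoters of Asns and Chac1 are shown because they carry the element read by this pathway. They are 300-base windows from 250 bases before to 50 bases after the annotated start, from RefSeq on GRCm38.p6 (chr6:7693160-7693459, minus strand for Asns and chr2:119350992-119351291, plus strand for Chac1). Capitals mark the match to TGATGNAA, searched on both strands, which began at position -23 in Asns and at position -193 in Chac1.
Asns: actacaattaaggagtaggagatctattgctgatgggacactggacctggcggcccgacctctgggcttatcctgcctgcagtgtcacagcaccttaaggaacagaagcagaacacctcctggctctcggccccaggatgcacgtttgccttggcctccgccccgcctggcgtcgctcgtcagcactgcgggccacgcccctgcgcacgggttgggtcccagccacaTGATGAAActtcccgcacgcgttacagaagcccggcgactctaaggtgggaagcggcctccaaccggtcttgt
Chac1: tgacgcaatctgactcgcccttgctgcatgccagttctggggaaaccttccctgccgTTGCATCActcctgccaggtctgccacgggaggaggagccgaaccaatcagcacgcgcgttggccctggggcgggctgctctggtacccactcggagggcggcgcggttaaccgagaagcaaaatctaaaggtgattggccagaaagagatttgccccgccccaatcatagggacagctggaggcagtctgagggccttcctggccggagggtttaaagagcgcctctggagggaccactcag
The element was found in 7 of 16 windows (43.8%) of the ATF4 list, in 5 of 12 windows (41.7%) of the tRNA synthetase list and in 1 of 11 windows (9.09%) of the serine list, against 3.97% of all 32851 windows. A match describes the letters only, and Atf3, which was lower in culture, was among the ATF4 members with a match.

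In the serine and one-carbon list, 8 of 12 kept genes were higher and 0 lower, with a median log2 difference of 1.92. The mitochondrial members led, of which Aldh1l2 passed the filter only through the cultured library and could not come out lower. Aldh1l2, the mitochondrial formyltetrahydrofolate dehydrogenase, was at 39.6 FPKM in the cultured library and 0.557, 0.439, 0.453 and 0.438 FPKM in vehicle replicates 1 to 4 (0.472 ± 0.0573 FPKM), a log2 difference of 4.79, so that every vehicle library was under 1 FPKM. Mthfd2, a mitochondrial folate enzyme, was at 71.6 FPKM in the cultured library and 4.26, 4.07, 4.18 and 4.14 FPKM in vehicle replicates 1 to 4 (4.16 ± 0.0793 FPKM), a log2 difference of 3.81, and Pycr1 and Aldh18a1, enzymes of proline synthesis, were at 43.8 FPKM in culture and 1.96 ± 0.454 FPKM in vehicle cells (log2 difference 3.93) and at 108 FPKM in culture and 16.3 ± 0.919 FPKM in vehicle cells (log2 difference 2.66). The cytosolic enzymes Mthfd1 and Shmt1 were not apart, at 18.6 FPKM in culture and 17.6 ± 1.38 FPKM in vehicle cells (log2 difference 0.08) and 10.04 FPKM in culture and 12.3 ± 0.476 FPKM in vehicle cells (log2 difference -0.27). Among 9 kept amino acid transporters 5 were higher and 0 lower (median 1.18). Slc7a11 passed the filter only through the cultured library, so it could not come out lower. Slc7a11, the cystine-glutamate exchanger that feeds glutathione synthesis, was at 14.1 FPKM in the cultured library and 0.00905, 0.136, 0.0417 and 0.0116 FPKM in vehicle replicates 1 to 4 (0.0495 ± 0.0593 FPKM), a log2 difference of 3.85. Slc1a4 and Slc1a5, exchangers of neutral amino acids, were at 19.1 FPKM in culture and 3.69 ± 0.0902 FPKM in vehicle cells (log2 difference 2.10) and at 61.2 FPKM in culture and 15.9 ± 2.13 FPKM in vehicle cells (log2 difference 1.88). Of 20 cytosolic tRNA synthetases 12 were higher and 0 lower (median 1.24), led by Cars, for cysteine, at 64.8 FPKM in culture and 11.7 ± 0.573 FPKM in vehicle cells (log2 difference 2.37) and Gars, for glycine, at 159.9 FPKM in culture and 40.8 ± 1.92 FPKM in vehicle cells (log2 difference 1.94). Rars, for arginine, had the smallest difference, at 79.9 FPKM in culture and 79.4 ± 3.29 FPKM in vehicle cells (log2 difference 0.01).

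Glycolysis genes were higher in culture, and so were most hypoxia response genes. HIF-1, stabilised when oxygen is low, drives both lists through elements with the core ACGTG. Of 21 glycolysis genes 15 were higher and 0 lower, with a median log2 difference of 1.64. Aldoc, an aldolase, was at 119.9 FPKM in the cultured library and 9.75, 8.12, 7.83 and 5.71 FPKM in vehicle replicates 1 to 4 (7.85 ± 1.66 FPKM), a log2 difference of 3.79. Pgk1, phosphoglycerate kinase, was at 301 FPKM in the cultured library and 49.8, 43.2, 41.3 and 33.8 FPKM in vehicle replicates 1 to 4 (42.0 ± 6.58 FPKM), a log2 difference of 2.83. The glucose transporter Slc2a1 was at 123 FPKM in culture and 24.5 ± 3.90 FPKM in vehicle cells (log2 difference 2.30), Gapdh at 2410.4 FPKM in culture and 601 ± 35.1 FPKM in vehicle cells (log2 difference 2.003) and the enolase Eno1 at 677 FPKM in culture and 172 ± 30.8 FPKM in vehicle cells (log2 difference 1.99). In each of Aldoc, Pgk1 and Slc2a1 vehicle replicate 4 was the lowest vehicle library. Of 23 hypoxia genes 16 were higher and 2 lower (median 1.24). Ero1l, the oxidase that makes disulfide bonds in the endoplasmic reticulum, was at 240.2 FPKM in the cultured library and 11.5, 9.01, 9.75 and 6.71 FPKM in vehicle replicates 1 to 4 (9.24 ± 1.98 FPKM), a log2 difference of 4.58. P4ha2, a collagen prolyl hydroxylase subunit, was at 109 FPKM in culture and 6.19 ± 1.35 FPKM in vehicle cells (log2 difference 3.95), and Vegfa, the main angiogenic factor, at 486 FPKM in culture and 109 ± 24.03 FPKM in vehicle cells (log2 difference 2.17). The mitophagy receptor gene Bnip3 was at 104 FPKM in culture and 25.7 ± 9.09 FPKM in vehicle cells (log2 difference 2.06). The lower members were Angptl4, an inhibitor of lipoprotein lipase, at 14.5 FPKM in culture and 64.3 ± 9.49 FPKM in vehicle cells (log2 difference -2.06), and Car9, a carbonic anhydrase widely used as a hypoxia marker, at 2.10 FPKM in the cultured library and 10.1, 5.84, 6.99 and 3.61 FPKM in vehicle replicates 1 to 4 (6.64 ± 2.71 FPKM), a log2 difference of -1.23. The cultured value of Car9 was below all 4 vehicle libraries, which themselves spread over more than 1 log2 unit.

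The promoter of Pgk1 (RefSeq, GRCm38.p6, chrX:106186850-106187149, plus strand) is shown for that core. Capitals mark ACGTG or its reverse complement, at positions -150 and -131.
Pgk1: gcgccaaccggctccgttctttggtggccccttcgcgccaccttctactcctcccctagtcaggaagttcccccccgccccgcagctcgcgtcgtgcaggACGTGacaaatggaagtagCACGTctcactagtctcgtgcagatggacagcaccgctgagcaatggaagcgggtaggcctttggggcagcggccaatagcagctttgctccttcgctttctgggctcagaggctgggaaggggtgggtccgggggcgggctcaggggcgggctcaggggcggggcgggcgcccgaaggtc
ACGTG was present in 17 of 33 windows (51.5%) of the glycolysis list and 13 of 23 windows (56.5%) of the hypoxia list, against 19.6% of all windows. Car9, which was lower in culture, was among the hypoxia members with a match.

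Respiratory chain and TCA cycle genes stayed near vehicle level, and some genes of the pentose phosphate and nucleotide pathways were higher. None of 29 respiratory chain and ATP synthase genes was apart (median log2 difference 0.24, from -0.64 to 0.66). The 3 with the highest vehicle mean were Cox6c at 517 FPKM in culture and 659 ± 44.4 FPKM in vehicle cells (log2 difference -0.35), Atp5b at 571 FPKM in culture and 362 ± 11.7 FPKM in vehicle cells (log2 difference 0.66) and Ndufa4 at 401 FPKM in culture and 301 ± 4.47 FPKM in vehicle cells (log2 difference 0.41). In the TCA cycle list of 20 genes only pyruvate carboxylase, Pcx, was apart, at 10.9 FPKM in culture and 3.29 ± 0.229 FPKM in vehicle cells (log2 difference 1.48), and the median was 0.13. Of 24 pentose phosphate and nucleotide synthesis genes 6 were higher and 0 lower (median 0.28), among them Impdh1 of guanine nucleotide synthesis at 29.2 FPKM in culture and 5.41 ± 0.558 FPKM in vehicle cells (log2 difference 2.24), the transketolase Tkt at 152 FPKM in culture and 50.2 ± 2.38 FPKM in vehicle cells (log2 difference 1.58) and G6pdx, which opens the oxidative pentose pathway, at 104 FPKM in culture and 38.0 ± 3.71 FPKM in vehicle cells (log2 difference 1.44). The 44 ribosomal protein genes held 0 apart (median 0.16), with Rplp1 at 2583 FPKM in culture and 2805 ± 266 FPKM in vehicle cells (log2 difference -0.11), Rpl7 at 2321 FPKM in culture and 2117 ± 39.7 FPKM in vehicle cells (log2 difference 0.13) and Rps9 at 1309 FPKM in culture and 1393 ± 113 FPKM in vehicle cells (log2 difference -0.09). The 27 proteasome genes also held 0 apart, with a median of 0.41. Among 35 MYC and ribosome biogenesis genes 1 was higher and 2 were lower (median -0.03). Myc itself was at 79.2 FPKM in the cultured library and 171, 179.8, 175 and 196 FPKM in vehicle replicates 1 to 4 (180.4 ± 10.9 FPKM), a log2 difference of -1.18, below all vehicle libraries. Of 30 lysosome genes Lipa was higher and Ctsf lower.

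**Figure D4:**
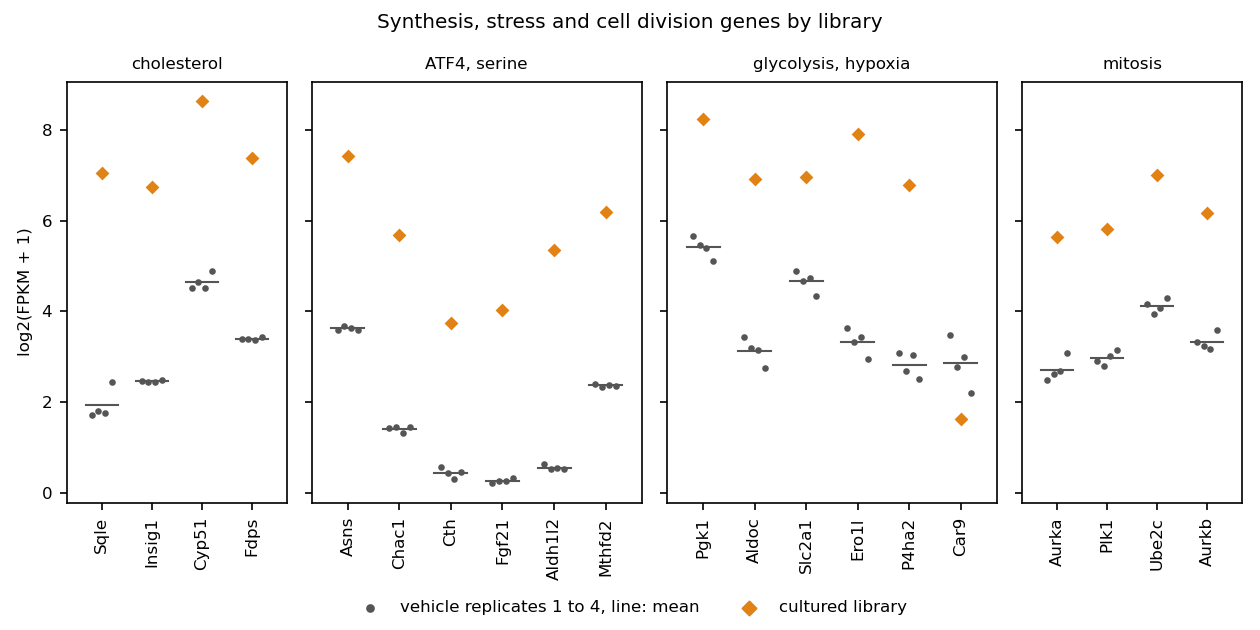
Level of 20 genes of sterol supply, amino acid stress and one-carbon metabolism, glycolysis and hypoxia, and mitosis in log2(FPKM + 1), for the cultured library (orange diamonds) and vehicle replicates 1 to 4 (grey points, line at their mean). All cultured values lie above the vehicle points except that of Car9, which lies below them.

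Genes of mitosis were higher in culture without exception in the list. Of 35 kept members 35 were apart and higher, with log2 differences from 1.61 to 2.93 and a median of 2.24. Aurka and Aurkb, kinases of the spindle poles and of chromosome attachment, were at 49.0 FPKM in the cultured library and 4.61, 5.14, 5.43 and 7.45 FPKM in vehicle replicates 1 to 4 (5.66 ± 1.24 FPKM), a log2 difference of 2.93, and at 70.8 FPKM in the cultured library and 8.97, 8.38, 7.999 and 11.0 FPKM in vehicle replicates 1 to 4 (9.09 ± 1.33 FPKM), a log2 difference of 2.84. Plk1, the kinase that drives mitotic entry, was at 55.1 FPKM in the cultured library and 6.46, 5.93, 7.11 and 7.91 FPKM in vehicle replicates 1 to 4 (6.85 ± 0.855 FPKM), a log2 difference of 2.84. Ube2c, the ubiquitin-conjugating enzyme of the anaphase-promoting complex, was at 127 FPKM in culture and 16.4 ± 1.76 FPKM in vehicle cells (log2 difference 2.89), and the phosphatase gene Cdc25c at 13.98 FPKM in culture and 1.15 ± 0.0510 FPKM in vehicle cells (log2 difference 2.80). The proliferation marker Mki67 was at 32.9 FPKM in culture and 7.95 ± 0.882 FPKM in vehicle cells (log2 difference 1.93). Vehicle replicate 4 had the highest level of Aurka, Aurkb and Plk1 in its group. DNA replication genes differed less. Of 36 kept members 11 were higher and 0 lower (median 0.75), led by the ribonucleotide reductase subunit Rrm2 at 46.9 FPKM in culture and 12.05 ± 0.959 FPKM in vehicle cells (log2 difference 1.88) and the replication fork genes Gins1 at 15.8 FPKM in culture and 4.46 ± 0.678 FPKM in vehicle cells (log2 difference 1.63) and Cdc45 at 20.3 FPKM in culture and 5.97 ± 0.759 FPKM in vehicle cells (log2 difference 1.62). Replicative helicase genes were closer, with Mcm6 at 68.8 FPKM in culture and 63.6 ± 2.08 FPKM in vehicle cells (log2 difference 0.11) and Mcm2 at 32.7 FPKM in culture and 24.03 ± 1.51 FPKM in vehicle cells (log2 difference 0.43). Of 23 p53 targets 7 were higher and 1 lower (median 0.50). Perp, a desmosomal and apoptosis-linked membrane protein, was at 35.9 FPKM in culture and 1.95 ± 0.433 FPKM in vehicle cells (log2 difference 3.66), and the inhibitor Cdkn1a (p21) was at 80.8 FPKM in culture and 34.9 ± 1.39 FPKM in vehicle cells (log2 difference 1.19).

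Promoters of Plk1 (chr7:122159185-122159484, plus strand) and Aurka (chr2:172370521-172370820, minus strand) from RefSeq on GRCm38.p6 are shown because every mitosis gene of the list stood higher in culture and many of their windows share 2 elements. Capitals mark the cell-cycle homology region TTTGAA, searched on both strands, which began at position 31 in Plk1 and 33 in Aurka, counted from 1 at the annotated start. Both windows also hold CCAAT.
Plk1: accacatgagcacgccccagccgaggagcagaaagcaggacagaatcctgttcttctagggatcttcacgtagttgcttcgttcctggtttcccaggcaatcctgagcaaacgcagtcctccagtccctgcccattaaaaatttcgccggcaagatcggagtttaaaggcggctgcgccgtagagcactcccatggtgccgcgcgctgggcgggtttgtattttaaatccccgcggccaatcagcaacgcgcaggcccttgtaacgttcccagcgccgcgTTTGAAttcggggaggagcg
Aurka: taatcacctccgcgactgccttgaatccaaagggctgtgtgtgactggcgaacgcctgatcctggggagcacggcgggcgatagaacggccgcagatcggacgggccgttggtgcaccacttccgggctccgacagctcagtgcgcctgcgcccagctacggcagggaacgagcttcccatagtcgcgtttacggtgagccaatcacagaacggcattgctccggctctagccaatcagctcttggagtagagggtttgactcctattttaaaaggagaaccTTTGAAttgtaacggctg
TTTGAA was present in 23 of 31 windows (74.2%) of the mitosis list against 17.9% of all windows, and CCAAT in 24 of 31 windows (77.4%) against 37.4%.

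Protein folding and redox genes were mixed. Of 24 unfolded protein response genes 8 were higher and 0 lower (median 0.80). The stress sensor kinases Ern1 (IRE1) and Eif2ak3 (PERK) were at 26.8 FPKM in culture and 7.88 ± 0.641 FPKM in vehicle cells (log2 difference 1.65) and at 18.3 FPKM in culture and 7.82 ± 0.549 FPKM in vehicle cells (log2 difference 1.13). The chaperone genes Hspa5 (BiP) and Calr were not apart, at 871 FPKM in culture and 764 ± 326 FPKM in vehicle cells (log2 difference 0.27) and 321 FPKM in culture and 307 ± 82.1 FPKM in vehicle cells (log2 difference 0.10). Among 22 heat shock genes 1 was higher and 3 were lower, and the lower ones were the small heat shock genes Hspb1 at 124 FPKM in culture and 614 ± 97.8 FPKM in vehicle cells (log2 difference -2.29), Hspb8 at 95.8 FPKM in culture and 459 ± 47.8 FPKM in vehicle cells (log2 difference -2.24) and Cryab at 14.4 FPKM in culture and 42.1 ± 4.63 FPKM in vehicle cells (log2 difference -1.48). The lower share of the list, 13.6%, is near that of all genes. NRF2 is the factor that induces glutathione and thioredoxin enzymes under oxidative stress. Of 27 genes of its list 8 were higher and 5 lower (median 0.25). Higher were the aldehyde dehydrogenase Aldh3a1 at 15.4 FPKM in culture and 1.03 ± 0.175 FPKM in vehicle cells (log2 difference 3.02), the thioredoxin reductase Txnrd1 at 1700.0 FPKM in culture and 484 ± 51.1 FPKM in vehicle cells (log2 difference 1.81) and the quinone reductase Nqo1 at 18.9 FPKM in culture and 3.95 ± 0.3001 FPKM in vehicle cells (log2 difference 2.01). Lower were the mu class glutathione transferases Gstm1 at 155 FPKM in culture and 2071 ± 404 FPKM in vehicle cells (log2 difference -3.71) and Gstm2 at 120.3 FPKM in culture and 1046 ± 219 FPKM in vehicle cells (log2 difference -3.08), near-identical copies that can share reads. In the list of 18 metal handling genes 5 were higher and 3 lower, with Mt2, a metallothionein, at 2.31 FPKM in culture and 37.5 ± 14.2 FPKM in vehicle cells (log2 difference -3.44) and the transferrin receptor Tfrc at 128 FPKM in culture and 49.2 ± 8.20 FPKM in vehicle cells (log2 difference 1.38).

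Immediate early genes were far lower in culture. They are switched on within minutes by growth factors, stress or mechanical handling through SRF, ELK1 and CREB. Of 25 kept members of 27, 20 were lower and 1 was higher, against 11.0% of all genes lower, and the median log2 difference was -2.61. Egr1, a zinc finger factor, was at 29.8 FPKM in the cultured library and 1204, 1356, 1365 and 1674 FPKM in vehicle replicates 1 to 4 (1399.5 ± 197 FPKM), a log2 difference of -5.50. The mRNA decay factor Zfp36 and the MAPK phosphatase Dusp1 were at 18.1 FPKM in culture and 612 ± 182 FPKM in vehicle cells (log2 difference -4.96) and at 18.9 FPKM in culture and 610.4 ± 67.8 FPKM in vehicle cells (log2 difference -4.94). Fosb and Jun, partners of Fos in AP-1, were at 4.88 FPKM in culture and 167 ± 31.8 FPKM in vehicle cells (log2 difference -4.81) and 47.7 FPKM in culture and 561 ± 125 FPKM in vehicle cells (log2 difference -3.50). In every one of these genes the 4 vehicle libraries were all above the cultured library, and vehicle replicate 4 had the highest Fos and Egr1. The 1 higher member was Fosl1, the AP-1 subunit FRA1, at 10.7 FPKM in the cultured library and 0.770, 0.631, 0.610 and 1.31 FPKM in vehicle replicates 1 to 4 (0.830 ± 0.327 FPKM), a log2 difference of 2.70. Fosl1 passed the filter only through the cultured library, so it could not come out lower. The cAMP response element TGACGTCA was found in 3 of 25 windows (12%) of the list against 1.79% of all windows, and the CArG box read by SRF in 5 of 25 (20%) against 1.63%. Those 5 windows belong to only 2 genes, Egr2 and Zfp36, of the 19 members with a window. The ascites cells were harvested from mice and sorted, which the labels do not say of the cultured cells, and handling and site cannot be told apart.

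CREB targets were mostly lower, and few MAPK feedback genes were apart. Of 20 CREB and CRTC targets 11 were lower and 2 higher (median -1.18). The 2 higher, Areg and Bdnf, passed the filter only through the cultured library, so they could not come out lower. Rgs2 passed only through the vehicle libraries and could not come out higher. Dusp1 is a member of this list and of the immediate early list, so the counts of these 2 lists are not separate. Nr4a1, an orphan nuclear receptor, was at 5.46 FPKM in culture and 127 ± 19.3 FPKM in vehicle cells (log2 difference -4.29), and Rgs2, which shortens G protein signals, at 0.464 FPKM in culture and 18.6 ± 5.71 FPKM in vehicle cells (log2 difference -3.69). Sik1, a salt-inducible kinase gene that CREB induces, was at 14.1 FPKM in the cultured library and 49.0, 39.4, 32.8 and 35.8 FPKM in vehicle replicates 1 to 4 (39.2 ± 7.07 FPKM), a log2 difference of -1.39. The higher members were both secreted ligands, Areg at 7.68 FPKM in culture and 0.312 ± 0.0653 FPKM in vehicle cells (log2 difference 2.73) and Bdnf at 12.3 FPKM in the cultured library and 0.201, 0.251, 0.258 and 0.281 FPKM in vehicle replicates 1 to 4 (0.248 ± 0.0334 FPKM), a log2 difference of 3.41. Of 22 MAPK feedback genes 2 were higher and 4 lower (median -0.12). This is 9.09% and 18.2% of the list, against 9.95% and 11.0% of all genes. The higher ones were the ETS factor Etv4, at 65.5 FPKM in the cultured library and 3.73, 4.65, 3.85 and 3.71 FPKM in vehicle replicates 1 to 4 (3.99 ± 0.450 FPKM), a log2 difference of 3.74, and the ERK phosphatase Dusp4, at 59.3 FPKM in culture and 7.80 ± 1.73 FPKM in vehicle cells (log2 difference 2.80). Dusp5, a phosphatase of nuclear ERK, went the other way, at 20.9 FPKM in culture and 118 ± 4.84 FPKM in vehicle cells (log2 difference -2.44).

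Genes of interferon gamma response were lower in culture, and those of type I interferon were divided. Of 18 kept genes of the interferon gamma list 12 were lower and 0 higher, with a median log2 difference of -1.39. Gbp2, Irgm2, Gbp6 and Gbp3 were below 1 FPKM in culture, so they entered through the vehicle libraries alone and could not come out higher. Gbp2, a guanylate-binding protein that attacks vacuoles of intracellular pathogens, was at 0.980 FPKM in the cultured library and 18.6, 21.3, 16.7 and 34.3 FPKM in vehicle replicates 1 to 4 (22.8 ± 7.95 FPKM), a log2 difference of -3.53. The related GTPase genes Irgm2, Gbp6 and Gbp3 were at 0.965 FPKM in culture and 9.93 ± 1.65 FPKM in vehicle cells (log2 difference -2.46), at 0.172 FPKM in culture and 4.24 ± 0.253 FPKM in vehicle cells (log2 difference -2.16) and at 0.442 FPKM in culture and 5.13 ± 1.39 FPKM in vehicle cells (log2 difference -2.06). Members of these families resemble each other and can share reads. Of 29 kept type I genes 8 were lower and 2 higher (median -0.42). Oasl2, an oligoadenylate synthetase-like protein, was at 4.85 FPKM in the cultured library and 211, 216, 232 and 264 FPKM in vehicle replicates 1 to 4 (231 ± 23.6 FPKM), a log2 difference of -5.30. The 2 higher genes were Bst2 (tetherin) at 21.3 FPKM in the cultured library and 4.90, 6.55, 6.33 and 4.85 FPKM in vehicle replicates 1 to 4 (5.66 ± 0.908 FPKM), a log2 difference of 1.76 and Oasl1 at 5.06 FPKM in culture and 1.74 ± 0.133 FPKM in vehicle cells (log2 difference 1.14). Isg15, a ubiquitin-like modifier, was not apart, at 8.74 FPKM in culture and 7.34 ± 0.980 FPKM in vehicle cells (log2 difference 0.23). Vehicle replicate 4 had the highest level of Gbp2 and Oasl2. Macrophage sums also differed between culture and vehicle cells, and the part of macrophage RNA in these values was not tested.

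The promoter of Gbp2 (RefSeq, GRCm38.p6, chr3:142620413-142620712, plus strand) is shown for the element that interferon-activated factors read. Capitals mark GAAANNGAA or its reverse complement, at position -58.
Gbp2: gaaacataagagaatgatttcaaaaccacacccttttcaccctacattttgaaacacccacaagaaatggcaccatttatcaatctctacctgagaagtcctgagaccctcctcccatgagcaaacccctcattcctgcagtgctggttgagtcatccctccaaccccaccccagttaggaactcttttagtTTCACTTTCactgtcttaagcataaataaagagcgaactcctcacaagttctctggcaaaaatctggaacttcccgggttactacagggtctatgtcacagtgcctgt
That element was found in 10 of 17 windows (58.8%) of the interferon gamma list and in 11 of 24 windows (45.8%) of the type I list, against 8.56% of all windows. Bst2, which was higher in culture, and Isg15, which was not apart, were among the type I members with a match.

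The MHC class I list, which is near the property the ascites cells were sorted for, held 5 lower and 0 higher genes of 18 (median -0.72). The class I heavy chain genes H2-K1 and H2-D1 and B2m were within 1 log2 unit, at 96.6 FPKM in culture and 184 ± 43.2 FPKM in vehicle cells (log2 difference -0.89), 59.5 FPKM in culture and 103 ± 17.8 FPKM in vehicle cells (log2 difference -0.76) and 424 FPKM in culture and 619 ± 79.3 FPKM in vehicle cells (log2 difference -0.53), and all 3 cultured values were below the vehicle range. The 5 lower genes included all 3 immunoproteasome subunits, Psmb9 at 0.976 FPKM in culture and 9.07 ± 4.36 FPKM in vehicle cells (log2 difference -2.26), Psmb8 at 12.2 FPKM in culture and 40.4 ± 11.6 FPKM in vehicle cells (log2 difference -1.62) and Psmb10 at 13.2 FPKM in culture and 28.9 ± 6.998 FPKM in vehicle cells (log2 difference -1.04), with the loading factor Tapbpl and the nonclassical heavy chain H2-T23. Psmb10 was not apart without vehicle replicate 4 (log2 difference -0.89), and H2-K1 was apart without vehicle replicate 3 (-1.01). The ascites cells were gated on MHC class I protein, and the part of that gate in these values was not tested.

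All 8 kept genes of MHC class II presentation were lower in culture, with a median log2 difference of -4.89. Of those named below only H2-DMb1 reached 1 FPKM in culture. The others passed the filter only through the vehicle libraries, so they could not come out higher. Class II molecules show extracellular peptides to CD4 T cells, and tumor cells can make them after interferon gamma through the coactivator CIITA. Cd74, the invariant chain, was at 0.184 FPKM in the cultured library and 268, 293, 216 and 532 FPKM in vehicle replicates 1 to 4 (327 ± 140.4 FPKM), a log2 difference of -8.03. The alpha chain gene H2-Aa was listed at 0 in culture and stood at 157, 145, 122 and 293 FPKM in vehicle replicates 1 to 4 (179 ± 77.1 FPKM). H2-Eb1 was at 0.0483 FPKM in culture and 115 ± 53.7 FPKM in vehicle cells, and H2-Ab1 at 0.0265 and 68.2 ± 33.4 FPKM. The peptide editors H2-DMa and H2-DMb1 were at 0.486 FPKM in culture and 12.7 ± 5.46 FPKM in vehicle cells (log2 difference -3.13) and 1.15 FPKM in culture and 16.6 ± 6.09 FPKM in vehicle cells (log2 difference -2.97). Ctss, a protease that trims the invariant chain and is abundant in macrophages, was listed at 0 in culture and stood at 16.4, 24.6, 8.69 and 8.07 FPKM in the vehicle replicates. Ciita was listed at 0 in culture and at 1.57, 1.41, 1.30 and 1.89 FPKM. Macrophage markers moved with this result between culture and vehicle, and their sums are given above. Over the vehicle replicates Ctss had the order of the macrophage sum, while Cd74, H2-Aa, H2-Eb1 and H2-Ab1 were highest in replicate 4, where that sum was lowest. The part of macrophage RNA in the class II values was not tested.

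Acute phase and complement genes, which tumor cells and liver secrete in inflammation, were lower in culture. Of 16 kept genes 14 were lower and 0 higher, with a median log2 difference of -2.46. Saa3 and C4b were below 1 FPKM in culture, passed the filter only through the vehicle libraries and could not come out higher. Clu, the chaperone clusterin, was at 182 FPKM in the cultured library and 5398, 5652, 5342 and 5702 FPKM in vehicle replicates 1 to 4 (5524 ± 180.2 FPKM), a log2 difference of -4.92, and thus still abundant in culture. The serum amyloid gene Saa3 was at 0.573 FPKM in the cultured library and 61.3, 54.5, 26.1 and 40.3 FPKM in vehicle replicates 1 to 4 (45.5 ± 15.6 FPKM), a log2 difference of -4.82. The complement component C4b was at 0.00499 FPKM in culture and 24.5 ± 1.94 FPKM in vehicle cells (log2 difference -4.66), the lipopolysaccharide-binding protein Lbp at 1.44 FPKM in culture and 56.8 ± 4.43 FPKM in vehicle cells (log2 difference -4.56) and the C1 inhibitor Serping1 at 15.3 FPKM in culture and 284 ± 56.2 FPKM in vehicle cells (log2 difference -4.11). C3, the central complement component, was at 176 FPKM in culture and 455 ± 52.8 FPKM in vehicle cells (log2 difference -1.35). Ceruloplasmin, Cp, was level, at 135 FPKM in culture and 135 ± 15.6 FPKM in vehicle cells (log2 difference 0.00). Chemokine genes were mostly lower too, with 9 lower and 2 higher of 15 kept (median -1.37). Ccl6 and Cxcl2 passed the filter only through the vehicle libraries and could not come out higher. Ccl5 passed only through the cultured library and could not come out lower. Cxcl1, which draws neutrophils, was at 7.95 FPKM in the cultured library and 438, 496, 254 and 620.2 FPKM in vehicle replicates 1 to 4 (452 ± 153 FPKM), a log2 difference of -5.59. The monocyte attractant Ccl2 was at 24.2 FPKM in culture and 75.5 ± 19.4 FPKM in vehicle cells (log2 difference -1.57). Ccl6 and Cxcl2 were listed at 0 in culture, and in the vehicle replicates Ccl6 was at 29.5, 52.2, 21.5 and 24.5 FPKM and Cxcl2 at 23.1, 23.2, 5.996 and 12.3 FPKM. Both were highest in replicate 2, which also had the highest macrophage sum. The part of macrophage RNA was not tested. The 2 higher genes were Ccl5, at 8.80 FPKM in the cultured library and 0.590, 0.971, 0.161 and 0.265 FPKM in vehicle replicates 1 to 4 (0.496 ± 0.365 FPKM), a log2 difference of 2.74, and Cxcl12, at 6.50 FPKM in culture and 1.94 ± 0.808 FPKM in vehicle cells (log2 difference 1.40).

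In the NF-kappaB and cytokine list 6 genes were lower and 2 higher of 18 (median -0.37). The feedback inhibitor Nfkbia was at 34.0 FPKM in the cultured library and 355, 426, 239 and 447 FPKM in vehicle replicates 1 to 4 (366 ± 93.8 FPKM), a log2 difference of -3.35, and Nfkbiz, a nuclear member of the same family, at 3.67 FPKM in culture and 50.2 ± 13.97 FPKM in vehicle cells (log2 difference -3.41). The adhesion receptor Icam1 was at 1.66 FPKM in culture and 14.96 ± 3.43 FPKM in vehicle cells (log2 difference -2.56). The subunit genes Rela and Nfkb1 were not apart, at 44.9 FPKM in culture and 63.3 ± 1.41 FPKM in vehicle cells (log2 difference -0.49) and 38.0 FPKM in culture and 31.8 ± 2.97 FPKM in vehicle cells (log2 difference 0.25). Higher in culture were Ptgs2, the inducible cyclooxygenase, at 42.1 FPKM in the cultured library and 6.37, 6.05, 5.42 and 8.50 FPKM in vehicle replicates 1 to 4 (6.59 ± 1.34 FPKM), a log2 difference of 2.52, and Il1rn, the interleukin 1 receptor antagonist, at 51.8 FPKM in culture and 19.8 ± 2.83 FPKM in vehicle cells (log2 difference 1.36). Pla2g4a, the phospholipase that frees arachidonic acid for cyclooxygenases, was also higher, at 54.2 FPKM in culture and 8.96 ± 1.01 FPKM in vehicle cells (log2 difference 2.48), while the prostaglandin D synthase Ptgds was at 0.0399 FPKM in culture and 16.0 ± 3.57 FPKM in vehicle cells (log2 difference -4.004). Of 17 checkpoint ligands and suppressive enzymes 6 were lower and 2 higher (median -0.17). Arg1, an arginine-degrading enzyme, was listed at 0 in culture and at 18.2, 32.1, 10.5 and 7.83 FPKM in the vehicle replicates. This is the order of the macrophage sum, macrophages make Arg1 too, and their part was not tested. Galectin-3, Lgals3, was at 108 FPKM in culture and 21.7 ± 6.14 FPKM in vehicle cells (log2 difference 2.31), and the costimulatory ligand Tnfsf9 at 11.98 FPKM in culture and 2.32 ± 0.458 FPKM in vehicle cells (log2 difference 1.98).

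**Figure D5:**
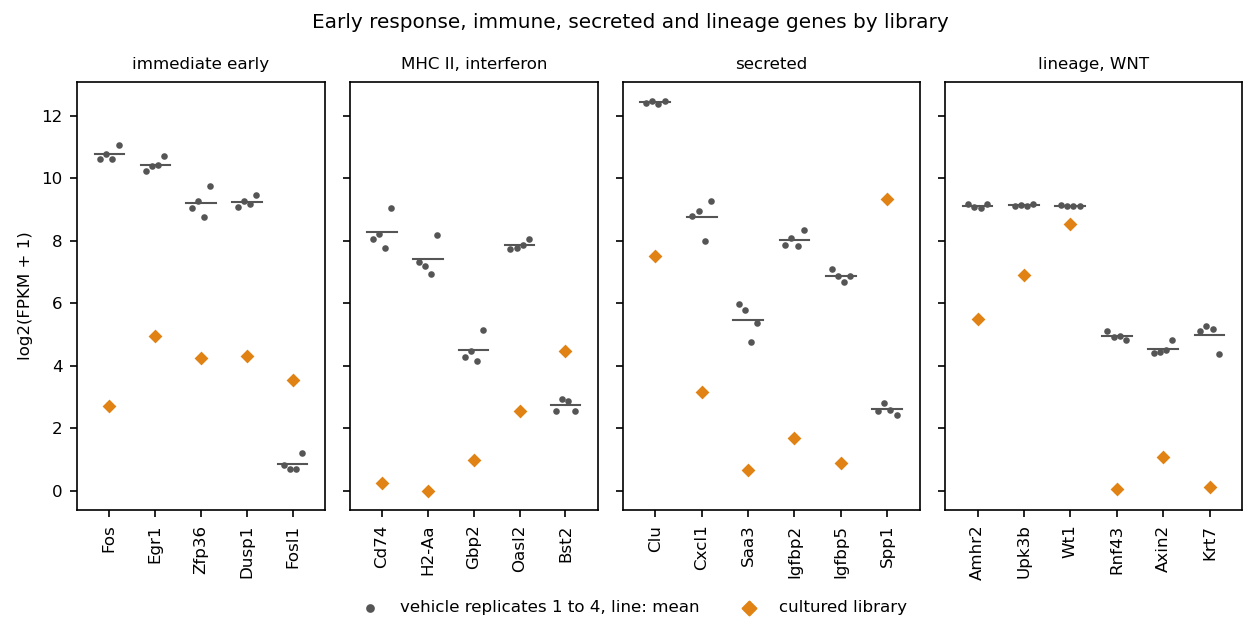
Level of 22 genes of the early response, immune presentation, secreted proteins, lineage and WNT feedback in log2(FPKM + 1), for the cultured library (orange diamonds) and vehicle replicates 1 to 4 (grey points, line at their mean). Cultured values lie below the vehicle points except for Fosl1, Bst2 and Spp1, which lie above them.

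Growth factors and their receptors went both ways. Of 19 kept growth factors 9 were higher and 4 lower (median 0.99). Of 25 receptors 5 were higher and 6 lower (median 0.03), and the difference between these 2 lists was not tested. Igf1 was the lowest growth factor relative to vehicle, at 2.13 FPKM in the cultured library and 39.8, 30.4, 24.1 and 17.5 FPKM in vehicle replicates 1 to 4 (27.9 ± 9.49 FPKM), a log2 difference of -3.15. The neuropilin Nrp2, a coreceptor for VEGF-C and semaphorins, was at 54.5 FPKM in the cultured library and 5.74, 5.81, 7.17 and 4.34 FPKM in vehicle replicates 1 to 4 (5.77 ± 1.15 FPKM), a log2 difference of 3.05, and the HGF receptor Met at 15.4 FPKM in culture and 2.31 ± 0.345 FPKM in vehicle cells (log2 difference 2.31). Fgfr2 was at 1.54 FPKM in culture and 18.3 ± 2.76 FPKM in vehicle cells (log2 difference -2.91). All 6 kept genes of the IGF binding list were apart. Beside Igfbp2 and Igfbp5, Igfbp6 and the protease Pappa were lower, at 92.6 FPKM in culture and 534 ± 104 FPKM in vehicle cells (log2 difference -2.49) and 3.59 FPKM in culture and 9.90 ± 0.223 FPKM in vehicle cells (log2 difference -1.25). Igfbp7 and Igfbp4 were higher, at 439 FPKM in culture and 71.8 ± 14.5 FPKM in vehicle cells (log2 difference 2.62) and 435 FPKM in culture and 125 ± 41.5 FPKM in vehicle cells (log2 difference 1.85).

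WNT feedback genes were lower in culture. Beta-catenin induces Axin2, Rnf43, Znrf3, Nkd1, Notum and Lgr5, which in turn damp or tune the signal. Of 23 kept genes 12 were lower and 1 higher (median -1.05). Rnf43, Nkd1, Lgr5 and Notum were below 1 FPKM in culture, passed the filter only through the vehicle libraries and could not come out higher. Rnf43, a ligase that removes Frizzled receptors, was at 0.0300 FPKM in the cultured library and 33.2, 29.2, 29.7 and 27.0 FPKM in vehicle replicates 1 to 4 (29.8 ± 2.58 FPKM), a log2 difference of -4.90. Axin2, a scaffold of the destruction complex, was at 1.11 FPKM in the cultured library and 20.2, 20.8, 21.9 and 27.1 FPKM in vehicle replicates 1 to 4 (22.5 ± 3.16 FPKM), a log2 difference of -3.47. Nkd1 was at 0.0161 FPKM in culture and 3.93 ± 0.792 FPKM in vehicle cells (log2 difference -2.26), Lgr5 at 0.682 FPKM in culture and 5.32 ± 1.95 FPKM in vehicle cells (log2 difference -1.86), Notum at 0.741 FPKM in culture and 4.56 ± 0.839 FPKM in vehicle cells (log2 difference -1.66) and Znrf3 at 3.45 FPKM in culture and 8.25 ± 0.431 FPKM in vehicle cells (log2 difference -1.05). Of the ligands, Wnt9a was at 1.55 FPKM in culture and 13.1 ± 2.35 FPKM in vehicle cells (log2 difference -2.45) and Wnt4 at 15.4 FPKM in culture and 63.0 ± 20.1 FPKM in vehicle cells (log2 difference -1.92). The 1 higher gene was the secreted antagonist Sfrp4, at 25.1 FPKM in the cultured library and 2.47, 2.73, 2.32 and 2.71 FPKM in vehicle replicates 1 to 4 (2.56 ± 0.199 FPKM), a log2 difference of 2.87. The Frizzled receptors Fzd1, Fzd2 and Fzd7 were not apart.

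TGF-beta, BMP and YAP lists were divided. Of 19 TGF-beta and activin genes 4 were higher and 4 lower (median -0.45). Inhba, which encodes the beta A subunit of activin, was at 4.48 FPKM in the cultured library and 0.504, 0.482, 0.619 and 0.511 FPKM in vehicle replicates 1 to 4 (0.529 ± 0.0609 FPKM), a log2 difference of 1.84, and Tgfbi, a matrix protein named for its induction, was at 0.431 FPKM in culture and 11.3 ± 2.29 FPKM in vehicle cells (log2 difference -3.08). Of 17 BMP and ID genes 4 were lower and 2 higher. Id1 and Id3, inhibitors of helix-loop-helix factors and BMP targets, were at 49.2 FPKM in culture and 257 ± 79.6 FPKM in vehicle cells (log2 difference -2.31) and 84.6 FPKM in culture and 336 ± 91.9 FPKM in vehicle cells (log2 difference -1.94). Bmp7 was listed at 0 in culture and at 11.3, 9.76, 9.74 and 14.4 FPKM in the vehicle replicates, and Bmp4 was at 60.3 FPKM in culture and 27.7 ± 2.30 FPKM in vehicle cells (log2 difference 1.10). Of 24 YAP and TEAD genes 3 were higher and 7 lower (median -0.18). Ankrd1 was the highest, while the matricellular genes Cyr61 and Ctgf were lower, at 199 FPKM in culture and 728 ± 109 FPKM in vehicle cells (log2 difference -1.86) and 245 FPKM in culture and 791 ± 124 FPKM in vehicle cells (log2 difference -1.68).

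Lineage genes were lower in culture in part. Of 15 mesothelial markers 12 were lower and 0 higher (median -2.24). Krt7, a simple epithelial keratin, was at 0.0804 FPKM in the cultured library and 33.7, 37.8, 35.0 and 19.6 FPKM in vehicle replicates 1 to 4 (31.5 ± 8.12 FPKM), a log2 difference of -4.87. Upk3b, a uroplakin of mesothelium, was at 118 FPKM in the cultured library and 548, 566, 558 and 575 FPKM in vehicle replicates 1 to 4 (562 ± 11.3 FPKM), a log2 difference of -2.24. The tight junction gene Cldn15, the sodium pump interacting gene Nkain4 and the galectin Lgals7 were at 3.07 FPKM in culture and 92.0 ± 7.54 FPKM in vehicle cells (log2 difference -4.51), at 1.80 FPKM in culture and 51.1 ± 6.79 FPKM in vehicle cells (log2 difference -4.21) and at 25.5 FPKM in culture and 322 ± 36.3 FPKM in vehicle cells (log2 difference -3.60). Of 19 Mullerian and ovarian genes 9 were lower and 1 was higher (median -0.93). Amhr2, the receptor of anti-Mullerian hormone, was at 43.9 FPKM in the cultured library and 583, 537, 529 and 573 FPKM in vehicle replicates 1 to 4 (555 ± 26.5 FPKM), a log2 difference of -3.63. The GATA factors Gata6 and Gata4 were at 74.7 FPKM in culture and 214 ± 8.42 FPKM in vehicle cells (log2 difference -1.51) and 66.9 FPKM in culture and 159 ± 24.7 FPKM in vehicle cells (log2 difference -1.22). Nr5a1, the steroidogenic factor SF-1, was not apart, at 26.9 FPKM in culture and 42.0 ± 1.12 FPKM in vehicle cells (log2 difference -0.62). Keratins Krt8 and Krt18 were not apart either, at 44.3 FPKM in culture and 60.6 ± 10.1 FPKM in vehicle cells (log2 difference -0.43) and 156 FPKM in culture and 172 ± 4.37 FPKM in vehicle cells (log2 difference -0.14). Pax8, Foxl2, Cdh1 and Epcam did not pass the filter.

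Of 13 mesenchymal transition genes 5 were higher and 2 lower (median 0.52). The transcription factors Snai2 and Snai1 were at 28.7 FPKM in the cultured library and 2.11, 2.13, 2.44 and 2.68 FPKM in vehicle replicates 1 to 4 (2.34 ± 0.273 FPKM), a log2 difference of 3.16, and at 5.93 FPKM in culture and 0.847 ± 0.167 FPKM in vehicle cells (log2 difference 1.91). Ncam1, a neural adhesion molecule, was at 39.6 FPKM in culture and 1.63 ± 0.296 FPKM in vehicle cells (log2 difference 3.96), the calcium-binding protein S100a4 at 228 FPKM in culture and 23.1 ± 5.14 FPKM in vehicle cells (log2 difference 3.28) and N-cadherin, Cdh2, at 47.5 FPKM in culture and 21.1 ± 2.09 FPKM in vehicle cells (log2 difference 1.14). Lower were Prrx1 and Cdh11, at 0.754 FPKM in culture and 4.53 ± 1.35 FPKM in vehicle cells (log2 difference -1.63) and 0.0536 FPKM in culture and 1.58 ± 0.516 FPKM in vehicle cells (log2 difference -1.27). Prrx1 and Cdh11 passed the filter only through the vehicle libraries and could not come out higher, and Cdh11 was low in vehicle cells too. Snai1 passed only through the cultured library and could not come out lower. Vim was at 799 FPKM in culture and 559 ± 27.8 FPKM in vehicle cells (log2 difference 0.52) and not apart.

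Matrix genes went both ways. Of 16 collagens 4 were higher and 7 lower (median 0.04). The 2 chains of type I collagen went opposite ways, with Col1a1 at 32.2 FPKM in the cultured library and 10.9, 10.1, 9.97 and 7.12 FPKM in vehicle replicates 1 to 4 (9.52 ± 1.66 FPKM), a log2 difference of 1.67, and Col1a2 at 0.0668 FPKM in the cultured library and 24.9, 21.0, 20.6 and 12.4 FPKM in vehicle replicates 1 to 4 (19.7 ± 5.27 FPKM), a log2 difference of -4.24. Col5a1 was at 25.3 FPKM in culture and 1.67 ± 0.210 FPKM in vehicle cells (log2 difference 3.30), and the basement membrane chains Col4a1 and Col4a2 were at 287 FPKM in culture and 119 ± 15.6 FPKM in vehicle cells (log2 difference 1.28) and 168 FPKM in culture and 84.6 ± 14.4 FPKM in vehicle cells (log2 difference 1.0003), of which Col4a2 was not apart without vehicle replicate 4 (log2 difference 0.87). The type VI chains Col6a1 and Col6a2 were lower, at 30.6 FPKM in culture and 110.2 ± 6.68 FPKM in vehicle cells (log2 difference -1.81) and 7.94 FPKM in culture and 74.4 ± 7.18 FPKM in vehicle cells (log2 difference -3.07). Of 27 other matrix genes 7 were higher and 8 lower. Elastin, Eln, was at 44.2 FPKM in the cultured library and 541, 514, 477 and 394 FPKM in vehicle replicates 1 to 4 (482 ± 63.9 FPKM), a log2 difference of -3.41, and the crosslinking enzyme Lox at 170.1 FPKM in culture and 24.4 ± 8.14 FPKM in vehicle cells (log2 difference 2.83). Decorin, Dcn, was at 243 FPKM in culture and 523 ± 19.4 FPKM in vehicle cells (log2 difference -1.10). Of 19 proteases and inhibitors 6 were higher and 5 lower, with the tissue plasminogen activator Plat at 6.74 FPKM in culture and 88.1 ± 4.60 FPKM in vehicle cells (log2 difference -3.52). Of 13 integrins 2 were higher and 3 lower. The fibronectin receptor chain Itga5 and the beta chain Itgb3, which pairs with the alpha v chain, were the higher ones, at 82.6 FPKM in culture and 18.4 ± 1.73 FPKM in vehicle cells (log2 difference 2.11) and 27.7 FPKM in the cultured library and 3.58, 3.55, 3.94 and 4.06 FPKM in vehicle replicates 1 to 4 (3.78 ± 0.257 FPKM), a log2 difference of 2.59. Myl9 led 3 lower genes in the actin list of 25, in which 3 were higher and the median was 0.14, so that both shares were near those of all genes. Of 16 epithelial junction and keratin genes 3 were higher and 2 lower, and of 17 ovarian cancer driver genes 1 was higher and 1 lower. Of 6 kept replication-dependent histone genes 4 were lower and 0 higher, and poly(A) selection captures their transcripts poorly.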

How the data were processed

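RNA was measured by stranded, poly(A)-selected sequencing of 5 libraries, 1 of cultured and 4 of vehicle ascites cells, grouped by their titles. The deposited values are FPKM per gene and library with a status for each value, per the file headers, computed by the authors. bcl2fastq 2.19 and GRCm38 are named in the submitters' processing notes. Which aligner and quantifier were run is not given in the sources used here. Of 48302 rows, 65 shared a gene identifier with a longer locus and were dropped. A value marked as failed in 1 or more of the 5 libraries led to 6 genes being dropped, Fn1 and Rif1 among them, which left 48231. The list genes Slc7a5, Mvd, Cox4i1, Cdt1, Gins2, Rpl13, Irf8, Foxc2 and Ahsp were not analysed here. Gene positions are the table's, counted from 1.

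FPKM values are not counts, so no count model was used. Differences were computed on log2(FPKM + 1) with no rescaling, in Python 3.11.15 with numpy 2.4.6 and pandas 2.3.3, and plotted with matplotlib 3.10.9. An exact 0 is called listed at 0, with no fold against it. Fragment depths are approximate and give no interval for a single gene. Near-identical copies (globin, H2, Gbp and Gstm genes) can share reads.

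The members and the 66 gene lists, 53 of pathways and 13 of cell type markers, were chosen with earlier results of these data known. Genes named were, in each direction, the 15 apart with the largest log2 difference and at least 5 FPKM in the higher group, leaving out predicted genes and pseudogenes, and from each list described up to 5 members apart with the largest difference, or 3 with the highest vehicle mean where a list is described as alike, and marker genes. Members named beside these, because they were not apart, were the few of a list in 1 direction, or have a well-known role, were chosen after their values were seen. Some genes that the rule takes are counted with their lists and not reported here by name. Promoters were RefSeq windows of 300 bases on GRCm38.p6, matched by symbol. A gene with several windows was counted once for each window. Windows of all kept members were counted, whatever their call. The shares thus describe the lists and not the difference between culture and vehicle cells. Some list members had no window, and 29 of 35 mitosis genes and 14 of 15 ATF4 targets had at least 1. The alternatives tried were a pseudocount of 0.1 or 0.5, keeping all genes or those with at least 5 FPKM, a difference of 2 log2 units, the range of all 8 mouse libraries, 3 rescalings (median-of-ratios, quantile and TPM), leaving out each vehicle library, and, added after the data were seen, protein-coding genes only.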

Additional observations from a re-analysis of the deposited data

Results flagged for a closer look

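In 20 of the 257 named genes 1 vehicle library lay far from the other 3, by Dixon's gap ratio at the 95% level. Chance alone flags about 1 in 20 groups. Vehicle replicate 4 was the distant library in 16 of these genes, replicates 1 and 2 in 2 each. Replicate 4 was high in Hspa5 (1247 FPKM, others 563 to 665.9) and Calr (430.4 FPKM, others 261.9 to 269.4), chaperones of the endoplasmic reticulum, and the cultured values of 870.7 and 321 FPKM lay between. It was also high in Psmb10 (39.34 FPKM), Wnt4 (93.07 FPKM), Fzd7 (33.25 FPKM), Prrx1 (6.542 FPKM), Col6a2 (85.01 FPKM), Col5a1 (1.985 FPKM) and Sqle (4.412 FPKM). Replicate 4 was low in the matrix genes Col4a1 (95.25 FPKM), Col4a2 (63.1 FPKM) and Lox (12.25 FPKM), and in Cdh2 (18.03 FPKM), Msln (29.76 FPKM), Impdh1 (4.57 FPKM) and Kdelr3 (8.706 FPKM). Replicate 2 was high in Emb (6.897 FPKM) and Etv4 (4.655 FPKM), and replicate 1 in Aldh1l2 (0.5569 FPKM) and Mcm6 (66.76 FPKM). Without replicate 4 only Psmb10 and Col4a2 of these genes lost their call.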

How the results depend on the processing

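No gene apart in 1 direction was apart in the other under 13 other settings or, chosen after the data were seen, with protein-coding genes only. Against 1215 genes higher and 1349 lower, a difference of 2 log2 units gave 261 and 385, fewer by construction. The counts under the other settings stayed within 1.5 times, from 980 (minimum of 5 FPKM) to 1547 (pseudocount 0.1) higher and from 931 to 1653 lower under the same 2 settings, and leaving out each vehicle library gave 1198 to 1224 higher and 1333 to 1404 lower. No rescaling moved the median of all genes by over 0.1, and TPM scaling moved it most, by 0.0191. Of the genes named, Ccl2, Ctgf and Igha lay within the range of all 8 mouse libraries, and Col4a2 (0.97) and Znrf3 (-0.99) missed 1 log2 unit under quantile scaling. Medians near 0 changed sign in at least 1 setting for MYC targets, collagens, growth factor receptors, checkpoint ligands, integrins, matrix proteases, metal handling, cancer driver and prostaglandin genes, and for these lists no direction is given. List medians moved more. A pseudocount of 0.1 took the median of MHC class II presentation from -4.89 to -7.999 and of interferon gamma response from -1.39 to -2.41, and a minimum of 5 FPKM took the latter to -0.89, mesenchymal transition from 0.52 to 0.99 and matrix proteases from 0.09 to 0.95. Among the lists with a median of at least 0.1 in size, 19 of 56 moved by over 1.5 times in at least 1 setting, 10 of them marker lists. No paired analysis was possible because the cultured group has 1 library and the replicate numbers of the vehicle libraries name no partner in it. With 1 cultured library its own spread is unknown. FPKM values carry no counts, so the counting error of single genes is not known.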

Other observations

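Several further gene groups were put together after the values were seen, so their counts describe these 5 libraries and are no test. Retinoid handling, by which cells take up vitamin A and oxidise it to retinoic acid, held more lower than higher genes. Of 13 kept genes 6 were lower and 2 higher, with a median log2 difference of -0.49 against 0.04 for all genes. The retinol receptor Stra6 was at 5.86 FPKM in culture and 48.8 ± 5.14 FPKM in vehicle cells (log2 difference -2.86), and the retinol dehydrogenase Rdh10 at 11.6 FPKM in culture and 91.0 ± 30.5 FPKM in vehicle cells (log2 difference -2.82). The retinaldehyde dehydrogenases Aldh1a1 and Aldh1a2 were at 34.1 and 0.0413 FPKM in culture, against 623, 626, 561 and 441 FPKM and 9.75, 9.91, 8.99 and 11.2 FPKM in vehicle replicates 1 to 4. Both cultured values lay below all vehicle libraries.

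Of 5 kept gonadal hormone and steroid genes 4 were lower and 0 higher. Beside Amhr2 they were the inhibin subunit Inha at 11.0 FPKM in culture and 182 ± 18.9 FPKM in vehicle cells (log2 difference -3.92), the sex hormone-binding globulin Shbg, listed at 0 in culture and at 7.58, 4.64, 3.83 and 2.20 FPKM in the vehicle replicates, and the steroidogenic cholesterol carrier Star at 33.5 FPKM in culture and 156 ± 16.7 FPKM in vehicle cells (log2 difference -2.18). Glutathione transferases went both ways, with 5 higher and 6 lower of 19. The mu class genes Gstm6 and Gstm7 were lower, at 1.39 FPKM in culture and 92.9 ± 23.7 FPKM in vehicle cells (log2 difference -5.26) and 3.14 FPKM in culture and 34.0 ± 7.34 FPKM in vehicle cells (log2 difference -3.06). Among 19 collagen processing genes 10 were higher and 0 lower (median 1.06), with the prolyl 3-hydroxylase P3h2 at 38.1 FPKM in culture and 3.10 ± 0.307 FPKM in vehicle cells (log2 difference 3.26) and the KDEL receptor Kdelr3 at 111 FPKM in culture and 12.4 ± 2.45 FPKM in vehicle cells (log2 difference 3.09). Of 9 kept genes of the sodium pump and its FXYD regulators 4 were lower and 0 higher. Fxyd3 was at 9.12 FPKM in culture and 287 ± 16.1 FPKM in vehicle cells (log2 difference -4.83) and the beta subunit Atp1b2 at 5.86 FPKM in culture and 97.0 ± 11.2 FPKM in vehicle cells (log2 difference -3.83).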
